A study of Mus musculus with 196 samples.

Results

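The genes Robo3, Sox11, Tubb3, Otx2 and Hesx1 were followed through a culture of mouse germ cell precursors given BMP2, retinoic acid (RA) or an inducible Zglp1 transgene. They are 5 of the 25706 endogenous genes in the table, and they were chosen by their lower levels with BMP2, with BMP2 plus RA (B2RA) or with doxycycline plus RA (DoxRA) in these same libraries. The differences from control in those treatments are therefore given as a description, with no test, and tests were kept to libraries that the choice did not use. In control cultures at day 9 all 5 genes were read, and the levels of Robo3 and Sox11 there stood above those of day 4 in each of 6 clones. Hesx1 departed from the description of the set: with B2RA at day 9 it stood above control in Sko_B6 and Sko_F6, the Stra8-/- clones that were given B2RA.

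All 5 genes have known roles in the nervous system. Robo3 is a receptor of axon guidance that lets commissural axons cross the midline, and it belongs to the Roundabout family, whose other members bind Slit ligands. Sox11 is a SoxC transcription factor of newly formed neurons, and Tubb3 encodes beta-III tubulin, a cytoskeletal protein widely used to mark neurons. Otx2 and Hesx1 encode homeodomain transcription factors of the early head. Otx2 is also a factor of the epiblast, the tissue from which germ cells arise, and Hesx1 acts in forebrain and pituitary development. In the embryo, BMP signals and RA from surrounding tissue reach germ cells before they enter meiosis, and BMP signals also oppose neural fate in the early epiblast.

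The cultured cells were PGCLCs (primordial germ cell-like cells), derived from embryonic stem cells through an intermediate epiblast-like state. Day 0 of culture is a sort of PGCLCs, 4 days after induction, for the Prdm1-mVenus reporter. Sorted cells were grown on m220 feeder cells, which carry a membrane-bound form of the growth factor SCF, and later samples were sorted for the Dppa3-ECFP reporter. Every cultured line carried both reporters on a 129S1 and C57BL/6 background. H18 had no further change and gave 27 libraries. Clones Zko_E5 and Zko_G10 are Zglp1-/- (26 libraries each), and clones Sko_B6 and Sko_F6 are Stra8-/- (16 each). Clone OE_A2 (64 libraries) carried the Zglp1 coding sequence and mCherry behind a tetO/mCMV promoter together with rtTA, so that doxycycline (Dox) induces them, and clone OESko_A11 (16) carried the same transgenes on a Stra8-/- background. Each transgenic genotype is 1 clone. H18 received BMP2, RA or B2RA, with controls at days 3.5 and 4 only. The Zglp1-/- clones received control medium, BMP2 or B2RA, the Stra8-/- clones control medium or B2RA, OESko_A11 control medium or DoxRA, and OE_A2 control medium, Dox or DoxRA, each at days 4, 5, 7 and 9. OE_A2 was also grown in media that the labels call BMS, SerumMinus and SerumMinusWIN, the first and last with and without Dox. The labels do not describe BMS and WIN further. No line without the transgene received Dox. Single libraries of germ cells from ICR and C57BL/6 embryos were from E9.5 (PGCs, Dppa3-EGFP), E14.5 and E15.5 (oocytes, Ddx4-RFP). Groups held 2 libraries, apart from SerumMinus, H18 with B2RA at day 4 and the embryonic stages (1 each). For H18 with B2RA at day 4 a column named as a second replicate matched no sample title and was not used. Nothing in the labels says that the 2 libraries of a group came from separate cultures. Errors and p-values therefore measure only the spread between libraries within groups, which may be technical. In the main model each gene's spread was estimated over all cultured groups, not from the libraries of a comparison alone.

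Levels are 3′-end tags per 1000000 reads assigned to endogenous genes (RPM). Libraries held 877040 to 5196593 reads, so that 1 read was worth 0.192 to 1.14 RPM, and Robo3 and Sox11 were often at 0 to 3 reads. The 8 germ cell markers (Dppa3, Prdm1 and others) were all read in the cultured libraries and summed to 894 to 3641 RPM. The Zglp1 and Stra8 rows still held reads in the knockout clones. The labels do not give the deleted stretches, and a 3′ tag outside one would check nothing about the deletion. At day 9 with B2RA, Zglp1 was at 16.3 to 32.7 RPM in the Zglp1-/- clones against 48.8 to 53.6 RPM in H18, and Stra8 was at 423 to 688 RPM in Sko_B6 and 52.7 to 67.0 RPM in Sko_F6 against 658 to 805 RPM in H18. The mCherry row of OE_A2 stood at 162 to 406 RPM in control and 925 to 1659 RPM with Dox at day 9. The labels record 2 extraction protocols, RNeasy Micro (22 libraries) and a protocol that allows RNeasy Micro or NucleoSpin RNA XS (172), and all day 9 libraries of culture were made with the latter. In H18 at day 4 and in the Dox and DoxRA groups of OE_A2 at days 4 and 5, the Dox group at day 7 and a DoxRA library of day 7, protocol and treatment cannot be told apart. For H18 with B2RA at day 4 and the second DoxRA library of OE_A2 at day 7, samples of both protocols carry the same replicate number, and the protocol was taken from the sample whose title is the column name. These were bulk samples, in which fewer cells of a type and less RNA per cell cannot be told apart.

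The genes lie on mm10 (GENCODE release M21) as follows. Robo3 (identifier 19649) is at chr9:37415669-37433246 on the minus strand, Sox11 (20666) at chr12:27334264-27342574 on the minus strand, and Tubb3 (22152) at chr8:123411424-123422015 on the plus strand. Otx2 (18424) is at chr14:48657677-48673819 on the minus strand and Hesx1 (15209) at chr14:26994416-27002329 on the plus strand. The Tubb3 model lies inside a longer read-through model, Gm20388, on the same strand, and Otx2 overlaps the antisense gene Otx2os1, so counts of both are uncertain if the counting split or merged reads there. Otx2os1 itself held a read in 36 of 191 cultured libraries and at most 2.75 RPM.

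All 5 genes matched the RefSeq promoter table of GRCm38.p6. The promoters of 3 genes are printed: Robo3 and Sox11, the pair whose levels were most alike across the groups, and Hesx1, which stood above control with B2RA in Sko_B6 and Sko_F6 at day 9. Each runs 5′ to 3′ on the gene's strand, with bases covered by an exon of the gene left out. The Sox11 and Hesx1 windows end at the base before the RefSeq start. The Robo3 window holds 179 bases and ends short of the RefSeq start, where an exon begins. Capitals mark letters that match a searched motif. The windows are chr9:37433247-37433425 on the minus strand for Robo3, chr12:27342719-27342968 on the minus strand for Sox11 and chr14:27000112-27000361 on the plus strand for Hesx1, the last inside the GENCODE span of the gene.
Robo3: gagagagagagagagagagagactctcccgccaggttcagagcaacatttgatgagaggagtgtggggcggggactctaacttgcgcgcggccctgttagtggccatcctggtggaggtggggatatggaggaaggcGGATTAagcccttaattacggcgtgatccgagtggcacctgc
Sox11: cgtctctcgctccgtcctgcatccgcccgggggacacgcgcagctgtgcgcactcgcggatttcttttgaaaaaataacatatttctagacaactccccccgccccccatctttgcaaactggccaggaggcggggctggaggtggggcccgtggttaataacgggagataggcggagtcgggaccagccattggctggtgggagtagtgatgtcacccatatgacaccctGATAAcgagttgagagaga
Hesx1: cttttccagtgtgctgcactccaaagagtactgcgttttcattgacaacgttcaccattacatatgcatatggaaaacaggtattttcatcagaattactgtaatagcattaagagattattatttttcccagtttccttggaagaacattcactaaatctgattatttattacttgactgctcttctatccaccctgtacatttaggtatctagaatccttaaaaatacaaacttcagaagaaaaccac
Of 4 motifs searched on both strands, the letters were GATAA (GATA factors, found in the 250 bases before the start in 22.6% of 32851 RefSeq promoters), AGGTCA (a retinoid receptor half-site, 14.0%), GGCGCC (a GC-rich SMAD motif, 9.59%) and GGATTA (an OTX motif, 6.25%). The Robo3 window held 1 GGATTA, the Sox11 window 1 GATAA and the Hesx1 window none of the 4 motifs. A match describes the letters only. In the full 250 bases GC content was 61.2% for Robo3, 58.0% for Sox11, 68.0% for Tubb3, 34.0% for Hesx1 and 42.0% to 53.6% at the 4 starts of Otx2, against a median of 52.4% over all promoters. Hesx1 and 3 of the Otx2 starts were below the median.

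Across the 191 cultured libraries in 98 groups of line, treatment and day, each gene had its own order of levels. Robo3 was the sparsest, with a read in 101 libraries, 10 RPM or more in 21, and no read at all in 29 groups. Its median was 0.339 RPM and its highest library 48.7 RPM (Zko_G10 control at day 7). The highest group mean was 30.8 ± 9.49 RPM (SD, n = 2) in Zko_G10 control at day 9. Sox11 had a read in 155 libraries and 10 RPM or more in 43, with a median of 1.74 RPM. Its highest group was SerumMinus at day 9 (118 RPM, n = 1), followed by SerumMinusWIN at day 9 (86.4 ± 65.8 RPM). Tubb3 was read in 186 libraries, with a median of 8.62 RPM, and its highest group was Sko_B6 control at day 9 (40.7 ± 9.22 RPM). Otx2 was read in 183 libraries, with a median of 8.41 RPM, and led in BMS at day 9 (84.5 ± 25.3 RPM), followed by SerumMinus (55.5 RPM, n = 1) and OE_A2 control (53.6 ± 34.7 RPM) of the same day. Hesx1 was read in 188 libraries, with a median of 13.2 RPM, and led in OE_A2 control (93.2 ± 34.9 RPM), OESko_A11 control (91.1 ± 15.48 RPM) and BMS (80.3 ± 7.43 RPM), all at day 9. The highest groups were thus day 9 cultures without added BMP2, RA or Dox for all 5 genes. Neighbours in these orders mostly overlapped: of 97 neighbouring pairs of groups, the libraries did not overlap in 2 for Robo3, 3 for Sox11, 0 for Tubb3, 3 for Otx2 and 4 for Hesx1.

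Control cultures gained these transcripts late, Robo3 and Sox11 from near 0. In OE_A2 control Sox11 read 0.361 and 1.84 RPM at day 4, 0.604 and 5.94 RPM at day 5, 9.55 and 45.1 RPM at day 7, and 34.1 and 79.1 RPM at day 9. Robo3 in the same cultures read 0.721 and 0.307 RPM at day 4, 0 and 0.660 RPM at day 5, 1.84 and 11.8 RPM at day 7, and 6.195 and 30.9 RPM at day 9. The day 9 libraries of both genes lay above those of day 4, but replicates of the same day differed several-fold. The day 9 difference from day 4, on the scale of log2(RPM + 1), was 3.13 to 5.34 for Sox11 and 2.44 to 4.59 for Robo3 over the 6 clones with control cultures, with no overlap between days in any clone. For Otx2 it was 1.43 to 2.85 and for Hesx1 1.19 to 2.90, again without overlap in all 6 clones. Tubb3 differed by -0.27 to 1.58, and its day 4 and day 9 libraries overlapped in OE_A2, Zko_E5 and Zko_G10. Control cultures helped to choose the genes, so these differences carry no test. For scale, genes with at least 2 libraries at 10 RPM were counted where day 9 stood higher by at least 1 without overlap. They were 370 of 8642 in Sko_F6, the lowest share, and 1112 of 8841 in Zko_E5, the highest. Of the 5 genes, 3 passed that filter in Sko_F6, 4 in OE_A2 and Sko_B6, and 5 in OESko_A11, Zko_E5 and Zko_G10.

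**Figure D1:**
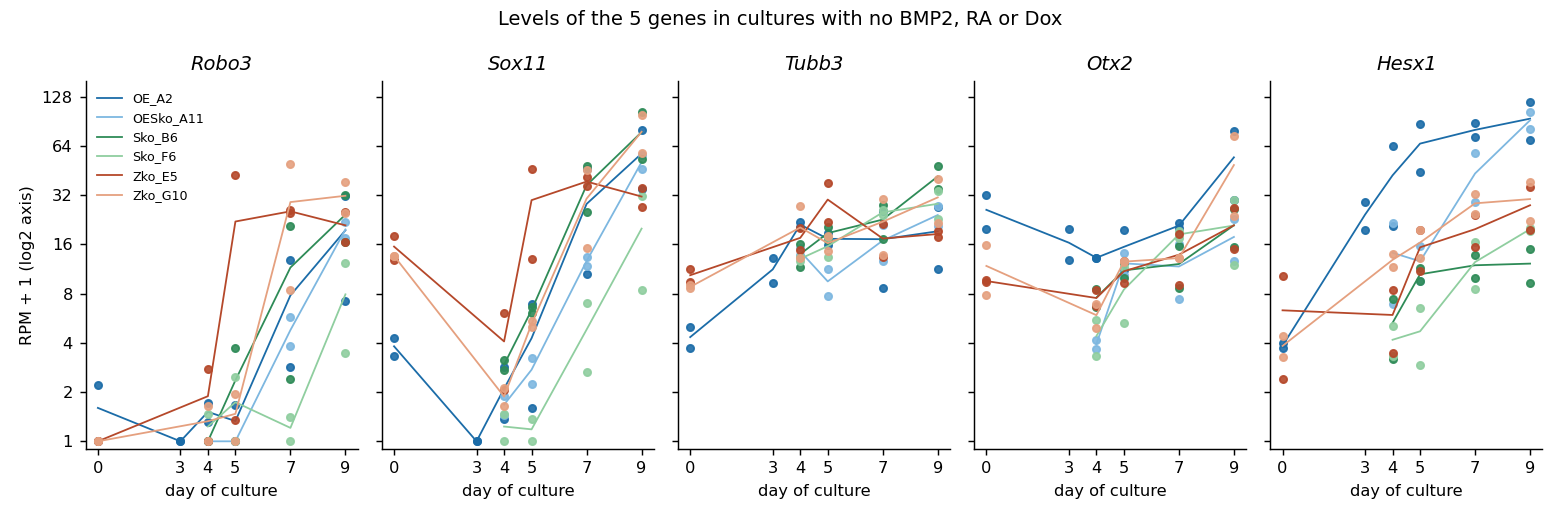
Levels of the 5 genes (RPM + 1 on a log2 axis) against the day of culture in libraries with no BMP2, RA or Dox, coloured by clone; dots are libraries and lines join group means. Robo3 and Sox11 are low at day 4 and higher at day 9 in every clone, with Sko_F6 still low at day 7, whereas Tubb3 is present from day 4 on.

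The time of appearance varied between clones. Zko_E5 already had 45.7 and 12.1 RPM of Sox11 at day 5, and its Robo3 libraries of that day read 41.9 and 0.346 RPM. In Zko_G10 at day 5 Sox11 read 4.03 and 4.41 RPM and Robo3 0 and 0.946 RPM. Sko_F6 was late and low, with 1.67 and 5.98 RPM of Sox11 at day 7 and 7.48 and 30.5 RPM at day 9. The other Stra8-/- clone, Sko_B6, reached 102 and 52.1 RPM at day 9.

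The summed neuronal markers also stood higher at day 9 than at day 4. Control libraries of day 4 summed to 59.0 to 92.6 RPM over 24 neuronal genes of the table, and those of day 9 to 114 to 486 RPM (median 219), with 19 of the 24 reaching 10 RPM in at least 1 library and none at 0 in every library. Markers of feeder and stromal cells (10 genes, among them Col1a1) summed to 18.4 to 226 RPM at day 4 and 62.3 to 613 RPM at day 9 in control. An epiblast list of 18 genes held 679 to 1175 RPM at day 4 and 786 to 1432 RPM at day 9, and the germ cell markers 1283 to 2349 RPM at day 9. The mean stromal sum was lower at day 9 in OE_A2 (130 RPM at day 4 and 69.2 RPM at day 9), and the mean epiblast sum was lower in Zko_E5, Sko_B6 and Sko_F6. The part of any of these cells in the levels of the 5 genes was not tested.

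With BMP2 alone at day 9, the Zglp1-/- clones held little Robo3, Sox11 or Tubb3. In Zko_E5 Robo3 read 15.52 and 24.4 RPM in control and 0.324 and 0 RPM with BMP2, a difference of -4.15 ± 0.78 (SE, log2 scale). In Zko_G10 it read 24.1 and 37.5 RPM in control and no read with BMP2, at least 52.7-fold lower against a floor of 3 reads over the group. Sox11 went from 34.6 and 26.3 RPM to 2.91 and 3.25 RPM in Zko_E5 (-2.93 ± 0.72), and from 56.9 and 97.7 RPM to 2.20 and 3.15 RPM in Zko_G10 (-4.38 ± 0.72). No treated library of these genes overlapped control in either clone. Tubb3 differed by -2.90 ± 0.60 in Zko_E5 (18.3 and 16.7 RPM against 1.94 and 1.08 RPM) and by -3.20 ± 0.60 in Zko_G10 (20.8 and 39.4 RPM against 1.32 and 3.498 RPM).

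Otx2 and Hesx1 differed less with BMP2 alone, and not alike in the 2 clones. Otx2 read 14.1 and 25.8 RPM in control and 8.42 and 18.9 RPM with BMP2 in Zko_E5, where the libraries overlapped (-0.56 ± 0.62). In Zko_G10 it read 22.8 and 73.2 RPM against 6.58 and 13.3 RPM (-2.01 ± 0.62). Hesx1 was lower in Zko_E5 (18.7 and 34.9 RPM against 5.18 and 10.8 RPM, -1.64 ± 0.61) and overlapped control in Zko_G10 (21.2 and 37.5 RPM against 17.995 and 34.3 RPM, -0.17 ± 0.61). So 4 of the 5 genes stood lower by at least 1 without overlap in each clone, and the gene left out differed, Otx2 in Zko_E5 and Hesx1 in Zko_G10. Over all genes with at least 2 libraries at 10 RPM, 1.44% stood lower in that way in Zko_E5 and 2.24% in Zko_G10. These contrasts chose the genes, so the shares are given only for scale. Robo3, Sox11 and Tubb3 also passed the filter through their control libraries alone in both clones.

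With B2RA all 5 genes stood below control in both Zglp1-/- clones (background 5.61% in Zko_E5 and 3.34% in Zko_G10, given only for scale). All 5 passed the filter through their control libraries alone, so the count cannot be read against that background. Otx2 had no read in any of the 4 B2RA libraries of day 9, at least 31.8-fold lower than control in Zko_E5 and at least 100.5-fold in Zko_G10. Hesx1 read 2.11 and 2.03 RPM in Zko_E5 (-3.12 ± 0.61) and 9.97 and 4.38 RPM in Zko_G10 (-1.93 ± 0.61). Robo3 was at 0 in both B2RA libraries of Zko_E5 and at 0.604 and 0 RPM in Zko_G10. Sox11 differed from control by -4.54 ± 0.72 and -4.62 ± 0.72, and Tubb3 by -3.79 ± 0.60 and -2.60 ± 0.60, in Zko_E5 and Zko_G10. BMP2 and B2RA were set against the same control libraries.

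B2RA was also set against BMP2, which gives the difference where RA was added to BMP2. At day 9 Otx2 was at least 21.8-fold lower with B2RA than with BMP2 in Zko_E5 and at least 20.8-fold lower in Zko_G10. Otx2 also lay lower, without overlap, at days 5 and 7 in both clones (-0.96 ± 0.62 and -1.94 ± 0.62 in Zko_E5, -1.66 ± 0.62 and -2.18 ± 0.62 in Zko_G10). Hesx1 at day 9 differed by -1.48 ± 0.61 and -1.75 ± 0.61. Robo3 differed by -0.20 ± 0.78 and 0.34 ± 0.78 with overlapping libraries, at levels near a read. Sox11 differed by -1.61 ± 0.72 in Zko_E5, without overlap, and by -0.24 ± 0.72 in Zko_G10, with overlap. In H18, the line with neither deletion, the single B2RA library used at day 4 read 15.6 RPM of Otx2, above the BMP2 libraries (2.74 and 4.26 RPM). At later days Otx2 lay lower with B2RA. It read 10.8 and 21.7 RPM with BMP2 and 3.72 and 2.21 RPM with B2RA at day 5 (-2.07 ± 0.62), and 3.05 and 2.63 RPM against 0.326 and 0 RPM at day 9 (-1.73 ± 0.62). Hesx1 in H18 at day 9 read 7.11 and 15.8 RPM with BMP2 and 1.95 and 0.281 RPM with B2RA (-2.58 ± 0.61). Tubb3 went the other way there, from 7.78 and 3.68 RPM with BMP2 to 23.1 and 11.5 RPM with B2RA (1.44 ± 0.60). Most of these values are under 10 RPM and rest on few reads.

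RA alone was given only to H18, at days 3.5 and 4. At day 4 Otx2 read 11.1 and 13.0 RPM in control and 3.72 and 4.14 RPM with RA (-1.40 ± 0.62), and 2.74 and 4.26 RPM with BMP2 (-1.55 ± 0.62). The B2RA library used for that day read 15.6 RPM, above both controls. Tubb3 read 10.3 and 13.4 RPM in control, 6.19 and 6.22 RPM with RA, and 5.09 and 7.68 RPM with BMP2. Robo3 read 1.64 and 1.92 RPM in control (4 reads each), none with RA, and 0.391 and 0.426 RPM with BMP2, apart from control but on few reads. Sox11 held at most 0.480 RPM in the control libraries of day 4, a level at which no lower level was detectable. Hesx1 read 5.74 and 8.64 RPM in control and 7.74 and 4.97 RPM with RA, which overlapped, and 3.13 and 1.28 RPM with BMP2. At day 3.5 Otx2 with RA (6.63 and 7.76 RPM) overlapped control (8.37 and 4.40 RPM). Treatment and extraction protocol cannot be told apart at day 4.

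**Figure D2:**
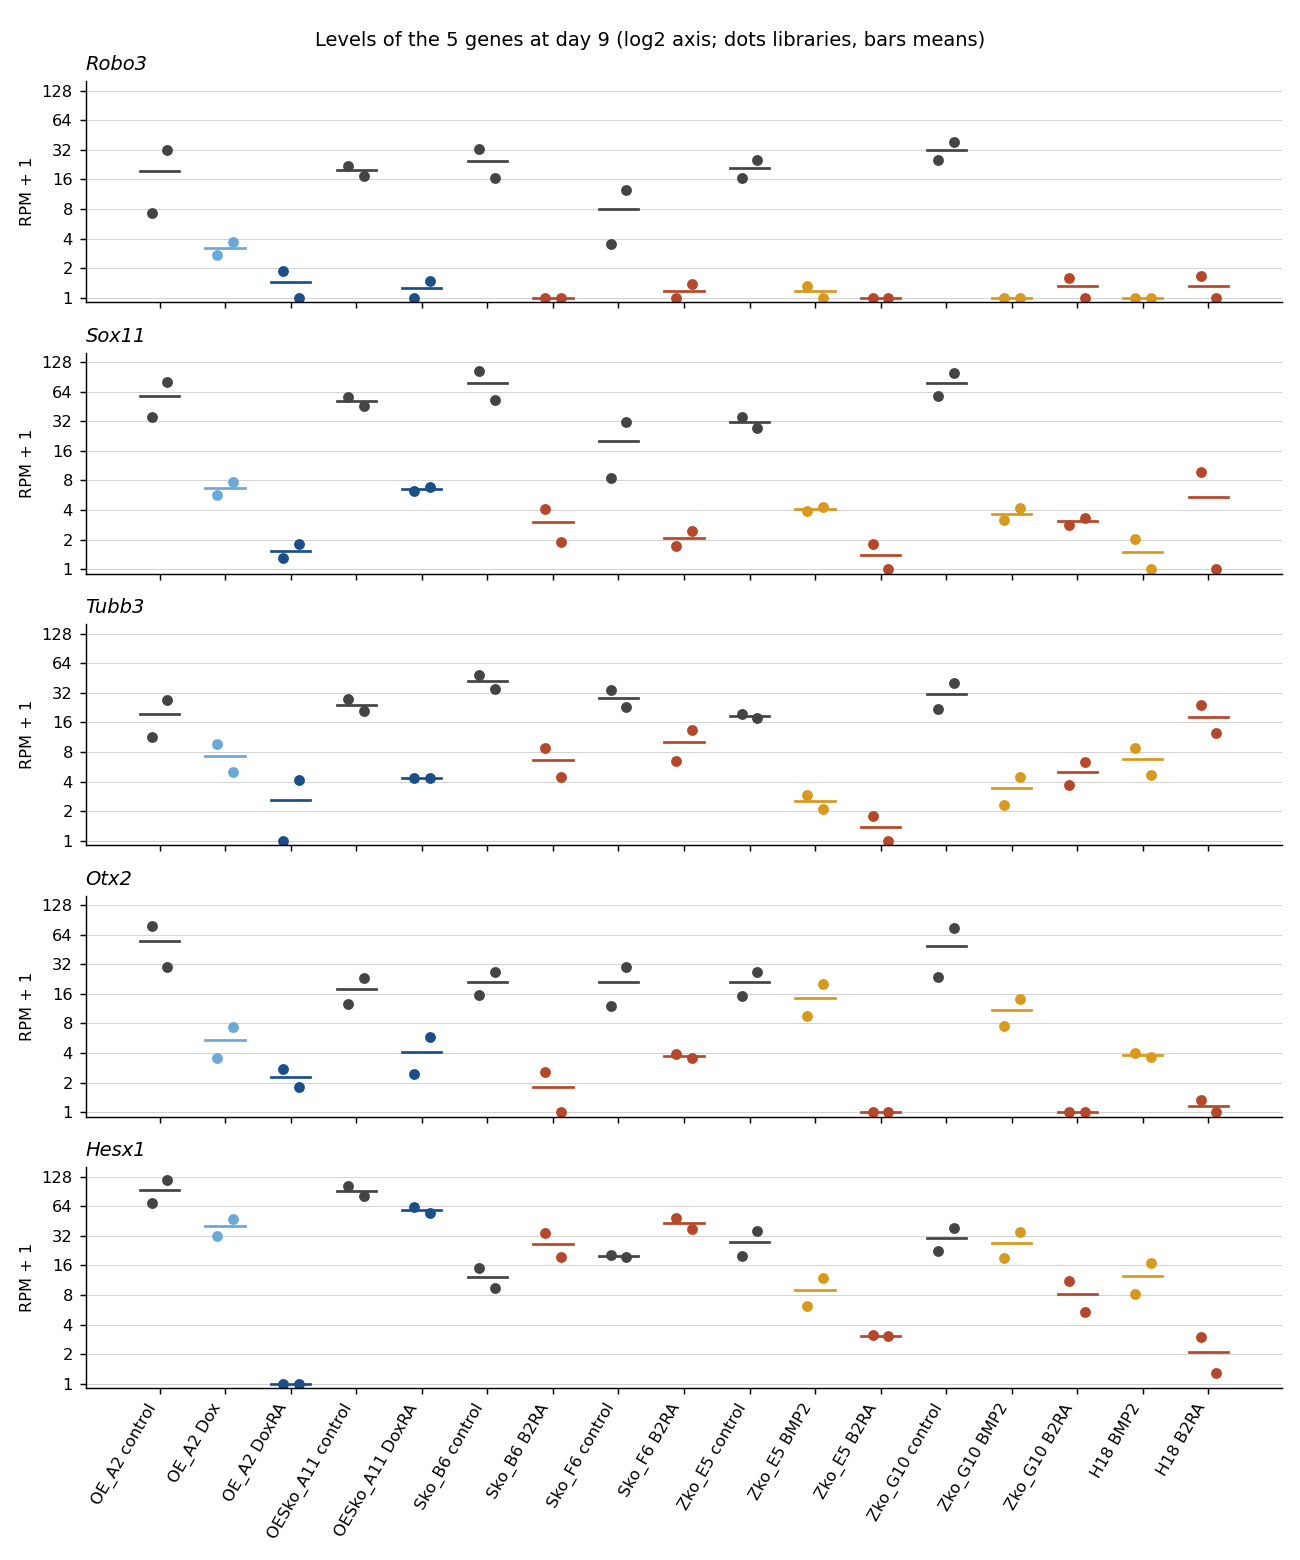
Levels of the 5 genes at day 9 (RPM + 1 on a log2 axis) in each line or clone and treatment; dots are libraries and bars are group means. With B2RA, Robo3, Sox11, Tubb3 and Otx2 sit below control in all 4 knockout clones, and Hesx1 sits above control in Sko_B6 and Sko_F6.

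In the Stra8-/- clones B2RA went with lower Robo3, Sox11, Tubb3 and Otx2 at day 9. In Sko_B6 Sox11 read 102 and 52.1 RPM in control and 3.14 and 0.873 RPM with B2RA (-4.73 ± 0.72), and Otx2 14.48 and 25.4 RPM against 1.57 and 0 RPM (-3.66 ± 0.62). Robo3 read 31.2 and 15.51 RPM in control and had no read with B2RA, at least 37.7-fold lower. In Sko_F6 Sox11 read 7.48 and 30.5 RPM against 0.732 and 1.47 RPM (-2.98 ± 0.72), Otx2 11.0 and 28.8 RPM against 2.93 and 2.58 RPM (-2.34 ± 0.62), and Robo3 2.49 and 11.4 RPM against 0 and 0.368 RPM (-2.49 ± 0.78). Control and B2RA libraries were apart for each of these genes. Tubb3 differed by -2.71 ± 0.60 in Sko_B6 and -1.57 ± 0.60 in Sko_F6. The count was 4 of 5 genes in each clone (background 5.20% in Sko_B6 and 5.14% in Sko_F6, given only for scale). In Sko_B6 these 4 genes passed the filter through their control libraries alone. In Sko_F6 Robo3 and Sox11 reached 10 RPM in fewer than 2 libraries, so that 2 of the 3 genes that passed the filter counted.

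Hesx1 went the opposite way in the Stra8-/- clones late in culture. In Sko_B6 it read 2.17 and 6.44 RPM in control and 1.99 and 1.88 RPM with B2RA at day 4, and 8.55 and 10.5 RPM against 0.429 and 2.17 RPM at day 5, that is lower with B2RA (-0.73 ± 0.61 and -2.30 ± 0.61). At day 7 it read 12.9 and 9.02 RPM in control and 14.0 and 17.1 RPM with B2RA (0.48 ± 0.61), and at day 9 14.1 and 8.35 RPM against 33.0 and 18.3 RPM (1.11 ± 0.61). B2RA libraries were thus below control at days 4 and 5 and above it at days 7 and 9. Sko_F6 ran the same course: 4.05 and 2.31 RPM in control against 0.815 and 1.17 RPM at day 4 (-1.04 ± 0.61), 1.91 and 5.51 RPM against 0.824 and 1.298 RPM at day 5 (-1.09 ± 0.61), 7.51 and 15.47 RPM against 27.2 and 20.7 RPM at day 7 (1.06 ± 0.61), and 19.2 and 18.5 RPM against 48.0 and 36.1 RPM at day 9 (1.102 ± 0.61). In no comparison of the 4 days did the 2 groups overlap in either clone. Most values of days 4 and 5 are under 10 RPM and rest on few reads. In Sko_B6 at day 4 the nearest libraries (2.17 RPM in control and 1.99 RPM with B2RA) were less than a read apart. There 1 read was worth 0.435 and 0.332 RPM, so that day shows no clear difference. The Zglp1-/- clones had lower Hesx1 with B2RA at day 7 (-1.44 ± 0.61 in Zko_E5 and -1.65 ± 0.61 in Zko_G10) as at day 9. The difference between the genotypes was not tested, because B2RA against control chose the genes.

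**Figure D3:**
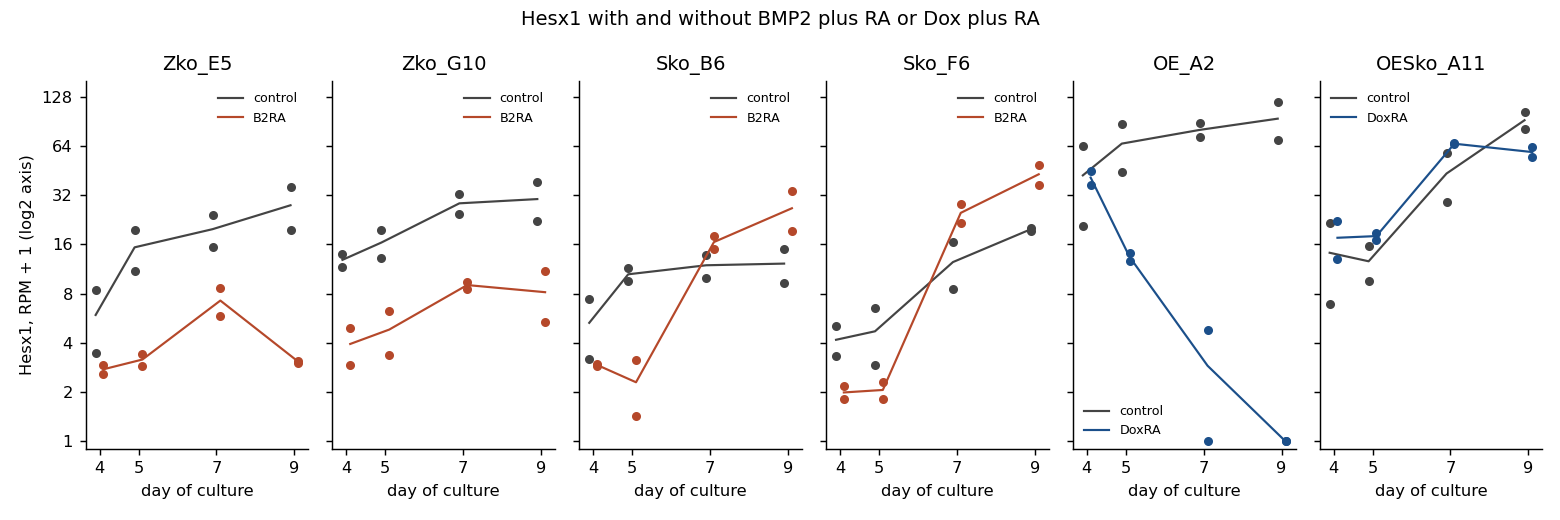
Hesx1 level (RPM + 1 on a log2 axis) against the day of culture, 1 panel per clone, for control and for B2RA or DoxRA; dots are libraries and lines join group means. Treated libraries lie above control at days 7 and 9 in Sko_B6 and Sko_F6 and below control at days 7 and 9 in Zko_E5, Zko_G10 and OE_A2.

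Induction of the Zglp1 transgene in control medium went with lower levels of all 5 genes at day 9, and all 5 were lower still with DoxRA. With Dox, Sox11 read 4.73 and 6.67 RPM in OE_A2 against 34.1 and 79.1 RPM in control (-3.00 ± 0.72), and Otx2 2.58 and 6.37 RPM against 78.1 and 29.1 RPM (-3.25 ± 0.62). Robo3 read 1.72 and 2.73 RPM against 6.195 and 30.9 RPM (-2.25 ± 0.78), and Tubb3 8.60 and 3.94 RPM against 10.3 and 26.2 RPM (-1.35 ± 0.60). Hesx1 read 31.0 and 46.7 RPM against 68.5 and 118 RPM (-1.22 ± 0.61). All 5 stood apart from control by at least 1 with Dox and with DoxRA. Robo3 did not pass the filter in either, and the other 4 genes did. Over all genes, 10.4% stood lower in that way with Dox and 22.5% with DoxRA. These shares are given only for scale, because DoxRA against control chose the genes and Dox used the same controls. With Dox, Sox11, Tubb3 and Otx2 passed the filter through their control libraries alone, and with DoxRA all 4 did. With DoxRA Hesx1 had no read in either library, at least 146-fold below control and at least 61.1-fold below Dox alone. Sox11 read 0.289 and 0.797 RPM and Otx2 1.73 and 0.797 RPM with DoxRA (-5.12 ± 0.72 and -4.46 ± 0.62 from control). The Dox and DoxRA groups share their controls, and effects of Dox and of the transgene cannot be told apart.

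In OESko_A11, which has the transgene and is Stra8-/- by its label, DoxRA at day 9 went with low Robo3, Sox11, Tubb3 and Otx2 while Hesx1 stayed above 50 RPM. Sox11 read 55.1 and 45.0 RPM in control and 5.24 and 5.81 RPM with DoxRA (-2.96 ± 0.72), Robo3 21.1 and 16.5 RPM against 0 and 0.484 RPM (-4.01 ± 0.78), and Otx2 11.6 and 22.0 RPM against 1.43 and 4.84 RPM (-2.18 ± 0.62). Tubb3 differed by -2.46 ± 0.60. In all, 4 of 5 genes stood lower by at least 1 without overlap, with a background of 7.41%, given only for scale. These 4 genes passed the filter through their control libraries alone. Hesx1 read 102 and 80.2 RPM in control and 61.9 and 53.7 RPM with DoxRA, lower by less than 1 (-0.64 ± 0.61). At day 7 Hesx1 with DoxRA was above control in OESko_A11 (64.5 and 65.9 RPM against 56.8 and 28.2 RPM) and at 0 and 3.80 RPM in OE_A2 (control 71.2 and 87.6 RPM).

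With B2RA at day 4 Tubb3 lay below control without overlap in all 4 knockout clones, by -1.08 ± 0.60 in Zko_E5, -1.39 ± 0.60 in Zko_G10, -1.11 ± 0.60 in Sko_B6 and -1.20 ± 0.60 in Sko_F6. Otx2 did so as well, by -1.70 ± 0.62, -1.12 ± 0.62, -1.35 ± 0.62 and -1.17 ± 0.62. It read at most 7.51 RPM there and did not pass the filter, and Tubb3 passed through its control libraries alone. In Sko_F6 Otx2 held 10 and 5 reads in control and 1 and 4 with B2RA. For scale, genes lower by at least 1 without overlap were 65 of 8285 in Zko_E5 and 27 of 8303 in Zko_G10. They were 17 of 8220 in Sko_B6 and 20 of 8396 in Sko_F6. Robo3 had at most 1.78 RPM in the day 4 controls of these clones, so no lower level was detectable there. With BMP2 alone at day 4 Otx2 overlapped control in both Zglp1-/- clones, and with DoxRA in OESko_A11 it lay above control (5.67 and 6.01 RPM against 2.68 and 3.19 RPM). In 157 of 385 described differences of the 5 genes the log2 difference was -1 or lower. These include the contrasts that chose the genes, and many of them share libraries. No share over all genes was computed for this pooled count, so it measures no effect of treatment.

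At day 9 the marker sums also differed between treated and control libraries. The neuronal list summed to 39.9 to 97.5 RPM with B2RA, 36.8 to 89.2 RPM with BMP2 and 56.6 to 80.8 RPM with DoxRA, below all control libraries (114 RPM or more). The stromal list ranged from 156 to 586 RPM with B2RA, 39.9 to 414 RPM with BMP2 and 62.4 to 569 RPM with DoxRA, against 62.3 to 613 RPM in control, and it was 59.8 to 61.9 RPM with Dox, below the lowest control. The epiblast list summed to 141 to 705 RPM with B2RA and 43.8 to 534 RPM with DoxRA, below all control libraries, and to 427 to 966 RPM with BMP2, which overlapped them. The part of these cells in the differences was not tested.

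The choice of genes did not use the BMS and SerumMinusWIN cultures of OE_A2, so Dox was tested there, with limma over all genes and Benjamini-Hochberg adjustment. A call required an adjusted p under 0.05 and a log2 change of 1 or more in size. In SerumMinusWIN at day 9, Hesx1 read 25.2 and 76.1 RPM without Dox and 2.02 and 12.6 RPM with it. Both Dox libraries were lower. Hesx1 fell by 2.81 ± 0.61 (limma, adjusted p = 1.34e-04), which was the only call among the 5 genes, all of which passed the filter, and 9.71% of all genes were called lower. Sox11 read 39.9 and 133 RPM without Dox and 31.6 and 22.3 RPM with it, also apart, but did not pass (-1.43 ± 0.72, limma adjusted p = 0.116). Otx2 read 38.1 and 64.6 RPM against 42.7 and 11.4 RPM (-1.12 ± 0.62, limma adjusted p = 0.154). For Tubb3 the change was -0.81 ± 0.60 (limma adjusted p = 0.306) and for Robo3 -0.37 ± 0.78 (limma adjusted p = 0.751), with overlapping libraries. Without the first SerumMinusWINDox library the Hesx1 call was lost (-1.72, limma adjusted p = 0.0579).

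In BMS at day 9 the genes called were Sox11 and Otx2, not Hesx1. Sox11 read 59.3 and 43.3 RPM without Dox and 12.4 and 6.63 RPM with it, a 5.38-fold lower mean, and fell by 2.35 ± 0.72 (limma adjusted p = 0.00769). Otx2 read 102 and 66.7 RPM against 41.1 and 9.47 RPM, a 3.35-fold lower mean, and fell by 2.00 ± 0.62 (limma adjusted p = 0.00839). Libraries with and without Dox did not overlap for either gene. Hesx1 read 75.0 and 85.5 RPM against 29.8 and 48.3 RPM, apart but not called (-1.06 ± 0.61, limma adjusted p = 0.18). Robo3 read 23.3 and 9.11 RPM against 4.90 and 0.947 RPM and did not pass the filter, and neither did Tubb3 (6.75 and 4.88 RPM against 16.2 and 0.947 RPM). Thus 2 of the 3 genes that passed the filter were called, against 6.39% of all genes called lower. The median of all genes in this comparison was 0.23 on the RPM scale and -0.04 with TMM scaling. Both calls were lost without the first BMS library (Sox11 -2.13, limma adjusted p = 0.0865; Otx2 -1.69, limma adjusted p = 0.118) and without the second BMSDox library (Sox11 -1.94, limma adjusted p = 0.121; Otx2 -0.99, limma adjusted p = 0.383).

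At earlier days no call was made in either medium. In SerumMinusWIN 3 genes passed the filter at day 4, 3 at day 5 and 4 at day 7, against 1.39%, 1.65% and 6.50% of all genes called lower by limma. In BMS 3, 3 and 4 genes passed, against 4.44%, 4.17% and 5.15%. At an unadjusted p under 0.05 limma counted 1 of them, Tubb3 in SerumMinusWIN at day 7, and edgeR called 1 there and none elsewhere on these days. Tubb3 read 24.3 and 14.2 RPM without Dox and 9.10 and 4.40 RPM with it in that comparison (-1.41 ± 0.60, limma adjusted p = 0.0611). Sox11 on that day read 33.0 and 22.4 RPM against 14.2 and 7.45 RPM, also without overlap. Hesx1 in BMS stood higher with Dox at day 5 (79.3 and 70.0 RPM against 46.8 and 23.2 RPM) and lower at day 9.

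**Figure D4:**
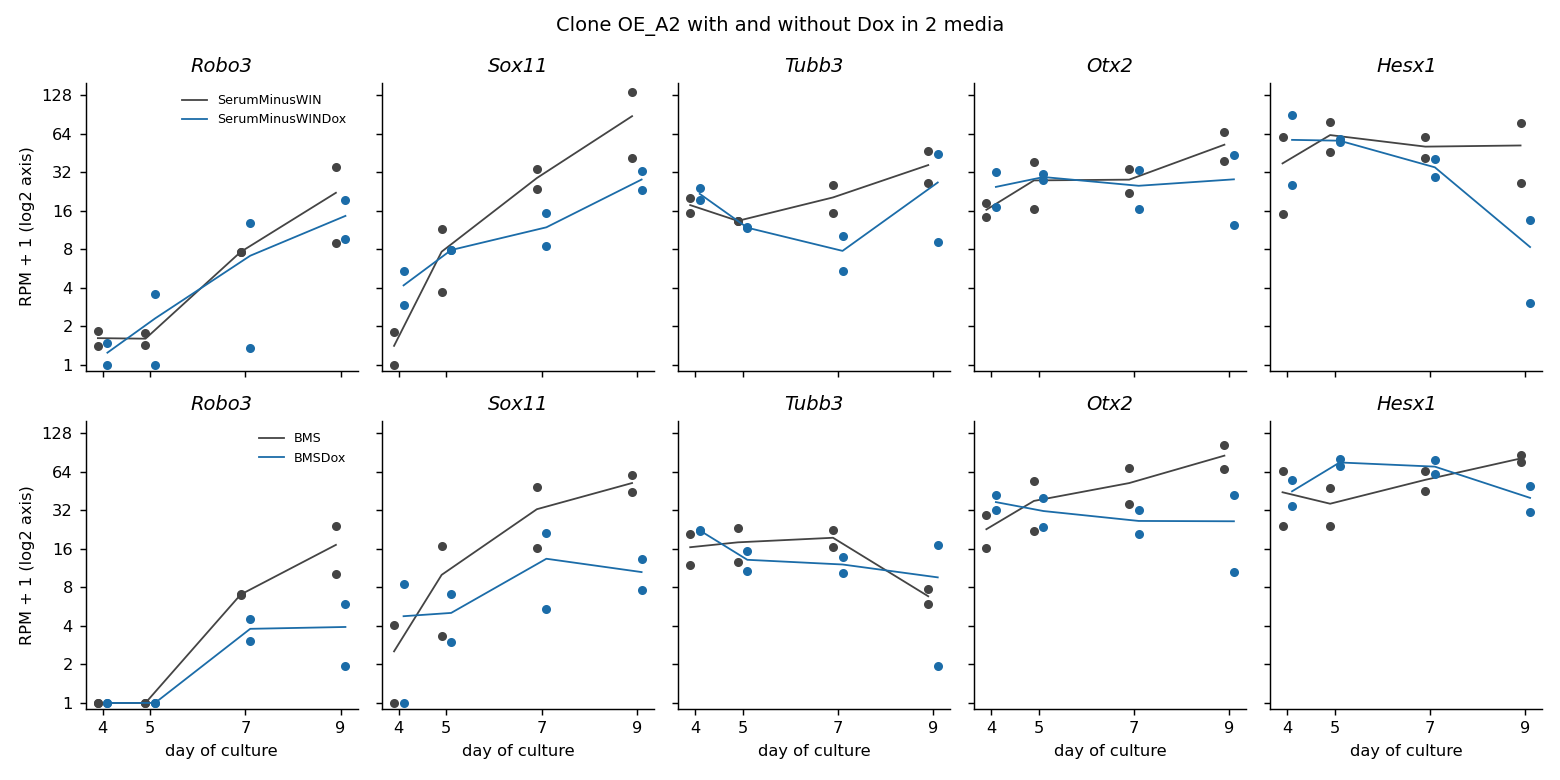
Levels of the 5 genes (RPM + 1 on a log2 axis) against the day of culture in clone OE_A2, without and with Dox, in SerumMinusWIN (upper panels) and BMS (lower panels); dots are libraries and lines join group means. At day 9 the Dox libraries lie below those without Dox for Hesx1 (called) and Sox11 (not called) in SerumMinusWIN. In BMS they do so for Sox11 and Otx2 (called) and for Hesx1 and Robo3 (not called).

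The same libraries without Dox gave a test of the time course, which shares the day 9 libraries with the tests of Dox. In BMS Sox11 read 3.06 and 0 RPM at day 4 and 59.3 and 43.3 RPM at day 9, and rose by 4.68 ± 0.72 (limma adjusted p = 1.85e-06). In SerumMinusWIN it read 0.806 and 0 RPM at day 4 and 39.9 and 133 RPM at day 9, and rose by 5.78 ± 0.72 (limma adjusted p = 3.85e-09). Sox11 passed the filter only through its day 9 libraries, which the rise itself decides. With no filter it was called in both media as well (limma adjusted p = 4.10e-06 and 1.42e-08). Otx2 rose in BMS, from 28.2 and 15.3 RPM to 102 and 66.7 RPM (1.94 ± 0.62, limma adjusted p = 0.0225), and did not pass in SerumMinusWIN (1.65 ± 0.62, limma adjusted p = 0.0754). The Otx2 call was lost without the first BMS library of day 9 (1.63, limma adjusted p = 0.288) or the second of day 4 (1.52, limma adjusted p = 0.288). Hesx1 differed by 1.04 ± 0.61 (limma adjusted p = 0.263) and 0.59 ± 0.61 (limma adjusted p = 0.618), and Tubb3 by -1.23 ± 0.60 (limma adjusted p = 0.163) and 0.99 ± 0.60 (limma adjusted p = 0.323), in BMS and SerumMinusWIN. Robo3 did not pass the filter in either. It had no read in BMS at day 4 and 23.3 and 9.11 RPM at day 9, at least 29.2-fold higher. Called higher were 2 of 4 genes in BMS (background 5.03%) and 1 of 4 in SerumMinusWIN (background 4.83%), counts that rest in part on genes let in by their day 9 level.

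From day 0 to day 3 in OE_A2, before any treatment, Hesx1 read 2.98 and 2.71 RPM and then 28.0 and 18.8 RPM. It rose by 2.64 ± 0.61 (limma adjusted p = 0.00327), 8.22-fold in the mean, and was the only call of the 2 genes that passed the filter (background 2.17% called higher). It passed the filter only through its day 3 libraries, and with no filter it was called as well (limma adjusted p = 0.00490). With edgeR it was not called (edgeR adjusted p = 0.0963), nor without the second day 0 library (limma adjusted p = 0.0550). Otx2 read 18.9 and 31.3 RPM and then 18.9 and 11.9 RPM (-0.66 ± 0.62, limma adjusted p = 0.660). Sox11 held 2.32 and 3.31 RPM at day 0 and no read at day 3. In the Zglp1-/- clones Sox11 was read at day 0 as well, at 11.9 and 17.2 RPM in Zko_E5 and 12.7 and 12.5 RPM in Zko_G10, above the same clones' control libraries of day 4. The day 0 libraries of Zko_G10 were made with the other extraction protocol than those of day 4.

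Lists of related genes were counted in the tests of day 9, and several hold the 5 genes themselves. The lists were drawn up with earlier results of these data known, so their counts are not independent evidence of a direction. With Dox in SerumMinusWIN 9.71% of all genes were called lower and 1244 of 9326 higher. There 3 of 8 tested anterior neural transcription factors fell (Hesx1 among them) and none rose, with a median of -1.30 against 0.01 for all genes. In the SoxB1 and SoxC list 2 of 5 tested members fell and none rose (median -1.28). Sox2, a factor of pluripotent cells and neural progenitors, fell from 399 ± 33.9 to 73.9 ± 13.0 RPM (-2.43 ± 0.41, limma adjusted p = 8.96e-07), and Sox1, an early neural factor, fell by 1.28 (limma adjusted p = 0.0468). Sox4, the SoxC relative of Sox11, went from 99.7 to 42.5 RPM without a call (limma adjusted p = 0.0716). Of the beta tubulins 2 of 6 fell: Tubb2b, from 35.1 to 6.39 RPM (-2.26, limma adjusted p = 6.72e-04), and the ubiquitous Tubb5, from 1959 to 1014 RPM (-1.04, limma adjusted p = 1.38e-04). In the epiblast list 7 of 11 fell and none rose (median -1.55), among them Tdgf1, a co-receptor of Nodal, from 152 to 23.3 RPM. In the axon guidance list 1 of 9 fell (Epha4) and 2 rose, Slit2 from 11.5 to 39.9 RPM and Neo1 from 37.6 to 82.2 RPM. None of 10 tested neuronal genes and none of 4 stromal genes was called. Of 7 tested germ cell markers 3 fell, among them Dppa3, the gene of the sorted reporter, and 1 rose, Ddx4, a marker of later germ cells.

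With Dox in BMS 6.39% of all genes were called lower and 1376 of 9279 higher. There 3 of 7 anterior neural factors fell and none rose (median -1.06 against 0.23 for all genes). Among them were Otx2 and Pax6, a factor of forebrain and eye, which fell from 29.6 to 5.76 RPM (-1.98, limma adjusted p = 0.00586). Sox11 was the only 1 of 4 tested Sox genes to fall. Sox4 had a change of 0.43 (limma adjusted p = 0.570), and Sox2 went from 240 to 127 RPM without a call (-0.91, limma adjusted p = 0.0719). Tubb2b fell from 20.6 to 3.30 RPM (-2.28, limma adjusted p = 7.48e-04), 1 of 4 beta tubulins. Stmn2, a microtubule regulator of neurons, fell from 26.0 to 5.19 RPM (-2.12, limma adjusted p = 0.0120), 1 of 2 tested neuronal genes. In the epiblast list 4 of 9 fell, Tdgf1 from 170 to 15.4 RPM and Lef1 from 14.3 to 1.23 RPM among them, and 1 rose. None of 5 axon guidance genes and none of 5 stromal genes was called. The neuronal list summed to 106 and 137 RPM in BMS and 62.5 and 93.4 RPM in BMSDox, the epiblast list to 883 to 1047 RPM and 377 to 602 RPM, and the stromal list to 102 to 226 RPM and 107 to 235 RPM. In SerumMinusWIN the neuronal list summed to 218 and 440 RPM, and to 131 and 250 RPM with Dox, the epiblast list to 1005 and 1067 RPM and then 161 and 587 RPM, and the stromal list to 77.3 and 287 RPM and then 96.7 and 156 RPM. Their part in the results was not tested.

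From day 4 to day 9 without Dox, called neuronal genes were 5 of 8 tested in SerumMinusWIN, all higher, and 1 of 4 in BMS, lower. The background called higher was 4.83% and 5.03%. In SerumMinusWIN 4 of 24 neuronal genes had a mean of 10 RPM or more at day 4, and 14 at day 9. Some list genes, Nefl and Sox1 among them, passed the filter only through their day 9 libraries, which the rise itself decides. The median over the neuronal list in SerumMinusWIN was 2.39, with Nefl, a neurofilament subunit, listed at 0 on day 4 and at 19.2 RPM on day 9. There 3 of 5 Sox genes rose, Sox11, Sox1 (0.608 to 12.3 RPM) and Sox4 (15.6 to 99.7 RPM, 2.58, limma adjusted p = 4.49e-04), as did 2 of 6 beta tubulins, Tubb2a and Tubb2b, and 2 of 7 axon guidance genes, Unc5b and Nrp2. In BMS, where 306 of 8728 genes were called lower, the neuronal gene called was Ina, which fell by 2.07 (list median -0.73). Sox11 was the only 1 of 4 Sox genes to rise there. Otx2 was the only called member of 7 anterior neural factors. The neuronal sum stood higher at day 9 in BMS too, at 75.8 and 105 RPM on day 4 and 106 and 137 RPM on day 9. The difference between the media was not tested. The stromal gene Acta2 rose in both media.

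Across the 98 group means of log2(RPM + 1), Robo3 and Sox11 were the most alike of the 5 genes. The Pearson correlation was 0.851 between Robo3 and Sox11, 0.651 between Hesx1 and Otx2, 0.620 between Tubb3 and Otx2, 0.604 between Sox11 and Otx2, and 0.534 to 0.539 for Tubb3 with Sox11, Tubb3 with Robo3 and Otx2 with Robo3. Hesx1 had 0.511 with Sox11, 0.392 with Robo3 and 0.351 with Tubb3. Groups share clones, media and days, so these values describe the table and carry no test. Among 10855 genes that reached 10 RPM in at least 2 libraries, the genes most like Robo3 were Dcx (r = 0.946), Miat (0.935) and Nhlh2 (0.910), and those most like Sox11 were Nnat (0.931), Miat (0.898) and Fabp7 (0.894). Dcx encodes doublecortin, a microtubule protein of migrating neurons, and Nhlh2 a helix-loop-helix factor of neurons. Tubb3 was most like Trim2 (0.709), Stmn2 (0.704) and Acsl5 (0.676). Otx2 was most like Pdk1 (0.763), Pou3f1 (0.752), a POU factor of epiblast and nervous system, and Jup (0.742), and Hesx1 most like Glipr2 (0.854), Ptgr1 (0.824) and Mpzl2 (0.807). Of these nearest genes, Dcx (Robo3) and Stmn2 (Tubb3) belong to the neuronal list and Pou3f1 (Otx2) to the epiblast list, while the genes nearest to Sox11 and Hesx1 are in none of the lists. Tubb3, Otx2 and Hesx1 were all read in day 4 controls as well, and the cells that their reads came from were not tested.

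In the germ cells of embryos, with 1 library per stage, Otx2 and Hesx1 had no read at E9.5, E14.5 or E15.5. Sox11 read 17.2 RPM at E9.5, 0.909 RPM at E14.5 and 1.07 RPM at E15.5, and Tubb3 3.35, 0.606 and 0 RPM. Robo3 read 0, 0.606 and 0.357 RPM. Sox11 was the only gene of the 5 above 10 RPM in any embryonic library, and these stages have no replicate check.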

How the data were processed

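The deposited table holds RPM, computed by the authors as reads per 1000000 reads assigned to endogenous genes, for 194 used libraries of PGCLCs and embryonic germ cells. 2 deposited columns, in which transgene rows raise the total most, were treated as a signal in RPM. 1 value column matched no labelled sample and was not used, and 3 lines shifted by an empty cell were realigned. Per the labels, 3′ ends were amplified from total RNA and sequenced on a NextSeq500. Per the submitters' processing notes, the tools were HTSeq 0.9.1, SAMtools 1.3, Bowtie 1.1.2, TopHat2 2.1.0 and cutadapt 1.9.1, with build mm10. The annotation and the use of strand are not given in the sources used here. The labels name no molecular identifiers, so floors cover counting error only.

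The genes, the lists and the comparisons were chosen with earlier results of these data known. One limma 3.58.1 model (R 4.3.3, trend and robust) was fitted to log2(RPM + 1) of 191 cultured libraries in 98 groups, a scale that understates changes of low genes. A gene was tested where at least 2 compared libraries reached 10 RPM and called where the p adjusted by Benjamini-Hochberg was under 0.05 and the log2 change was 1 or more in size. Tests were kept to 11 comparisons of libraries that the choice of genes did not use, and 77 others were described by values, SD, SE and overlap. Whole reads were recovered from the RPM steps (100% of values whole within 0.05 reads) for edgeR 4.0.16, run as an alternative on 10795 genes. Against a group without reads, folds use a floor of 3 reads over the group. Named genes were the 5, list members called at day 9 (at most 3 each way), direct relatives, and the 3 genes most correlated with each. 1 list gene is not reported here. Scripts were tested on simulated data. Positions are from GENCODE M21, and promoters from RefSeq. Per the labels, libraries came from a pair of extraction protocols.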

Additional observations from a re-analysis of the deposited data

Results flagged for a closer look

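Treated and untreated libraries lay apart in opposite directions in some clones or on some days. None of these differences between clones or days was tested, and all values are log2(RPM + 1) differences of groups of 2 libraries. Hesx1 with B2RA stood below control in Zko_E5 (-1.44 at day 7 and -3.12 at day 9) and Zko_G10 (-1.65 and -1.93), and above control in Sko_B6 (0.48 at day 7 and 1.11 at day 9) and Sko_F6 (1.06 and 1.102). With DoxRA Hesx1 stood below control in OE_A2 at day 5 (-2.22) and day 7 (-5.19), and above control in OESko_A11 on the same days (0.55 and 0.69) but below it at day 9 (-0.64). In OE_A2, day 5 and 1 library of day 7 also differ from control by extraction protocol, whose part was not tested.

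Dox in BMS medium went with different directions on different days. Otx2 stood above the cultures without Dox at day 4 (0.75) and below them at day 7 (-0.94) and day 9 (-1.995, a call by limma). Tubb3 stood above at day 4 (0.49) and below at day 7 (-0.69). Hesx1 stood above at day 5 (1.15) and below at day 9 (-1.06). No group had enough libraries for a check of single outlying libraries.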

How the results depend on the processing

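Replicates allow little: groups of 2 libraries leave most calls dependent on each library. Robo3 and Sox11 were near the level of a read in many libraries before day 7. Exceptions were Zko_E5 control at day 5 for both genes and the day 0 libraries of the Zglp1-/- clones for Sox11. Of 406 recomputed log2 differences in the tested comparisons, 366 kept direction and side of the threshold, 9 lost a call, 14 gained one and 17 changed sign. The cause of the changes below was not tested. With edgeR, Otx2 with Dox in SerumMinusWIN at day 5 was -0.024 (0.21 by limma) and Hesx1 with Dox in BMS at day 4 was -0.010 (0.15). Leaving out each library in turn, Hesx1 with Dox ranged from -0.34 to 1.66 in SerumMinusWIN at day 4, -0.48 to 0.29 at day 5, and -0.56 to 0.87 in BMS at day 4. Otx2 ranged from -0.40 to 0.83 in SerumMinusWIN at day 5, -0.72 to 0.30 at day 7 and -0.82 to 0.48 in BMS at day 5. Tubb3 ranged from -1.95 to 0.34 in SerumMinusWIN at day 9 and -0.86 to 0.036 in BMS at day 5, and Robo3 from -1.36 to 0.14 in SerumMinusWIN at day 9. Hesx1 from day 4 to 9 in SerumMinusWIN ranged from -0.41 to 1.59.

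Genes called with Dox in SerumMinusWIN were 327 at day 4 (52 from a fit of only the groups compared, 155 by edgeR, 8 to 414 leaving out a library), 501 at day 5 (785 with no filter, 254 from only the groups compared, 325 by edgeR, 37 to 642), 1904 at day 7 (1221 to 1704) and 2150 at day 9 (1130 to 2263). In BMS they were 812 at day 4 (200 from only the groups compared, 78 to 898), 1034 at day 5 (1673 with no filter, 319 from only the groups compared, 333 to 1026), 1531 at day 7 (2396 with no filter, 812 to 1227) and 1969 at day 9 (3134 with no filter, 1109 to 1896). Day 3 against day 0 gave 253 (414 with no filter, 107 by edgeR, 74 to 106). Day 9 against day 4 gave 745 in BMS (1253 with no filter, 283 from only the groups compared, 140 to 853) and 610 in SerumMinusWIN (1088 with no filter, 105 to 553).

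Of the 5 genes, those called with Dox in SerumMinusWIN at day 7 numbered 0, and 2 with a pseudocount of 5, 1 with TMM scaling, 2 from only the groups compared and 1 by edgeR. At day 9 there was 1, and 2 with a pseudocount of 5 (1 to 2 leaving out a library). In BMS there were 0 at day 7 (1 with a pseudocount of 5) and 2 at day 9 (0 to 2). Day 3 against day 0 gave 1 (0 by edgeR, 0 to 1). Day 9 against day 4 gave 2 in BMS (0 to 2) and 1 in SerumMinusWIN (2 with a pseudocount of 5, with no filter or from only the groups compared, 0 to 1). Without a library of day 3 or of day 9, some genes no longer passed the filter and gave no value. Of the 385 described differences, 157 were -1 or lower, and 174, 112 and 161 with a pseudocount of 0.5, a pseudocount of 5 and TMM scaling.

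Replicate numbers pair the samples only by number. Same-numbered libraries correlated at 0.061 to 0.433 in their deviations. With a replicate block the genes called were 344, 529, 1910 and 2165 with Dox in SerumMinusWIN at days 4, 5, 7 and 9, 826, 1050, 1547 and 1983 in BMS, 265 for day 3 against day 0, and 760 and 623 for day 9 against day 4 in BMS and SerumMinusWIN. The block changed no call of the 5 genes (0, 0, 0 and 1, 0, 0, 0 and 2, then 1, 2 and 1).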
